A study of Medicago truncatula with 18 samples.

Results

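This report is about whether the response of Medicago truncatula leaves to dawn depends on the photoperiod. It uses the 12 RNA-Seq libraries of the first of a pair of experiments, out of 18 libraries in all, and was chosen by harvest: LD and SD leaves at ZT2 and at ZT0, with 3 libraries in each of the 4 groups. ZT (zeitgeber time) counts hours since lights-on, so ZT0 is dawn and ZT2 lies 2 h into the light in both photoperiods. The question for each gene was whether its change over these 2 h, ZT2 over ZT0, was the same in LD as in SD.

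All plants were of the cultivar 'Jester', were vernalised as seedlings and carried no transgene or mutation. LD plants had grown for 10 days in SD, were moved at ZT8 into days of 16 h light and 8 h dark and had spent 3 days there. SD plants stayed in days of 8 h light and 16 h dark. Both were 13 days old at harvest, and each library pooled a pair of first trifoliate leaves from different plants, so that a replicate is a pool and not a plant. The 4 groups shared the library kit (ScriptSeq Complete) and the sequencing lane, which the 6 libraries taken at ZT4 from older plants did not, and those 6 are not part of the test. These are bulk leaves, in which fewer cells of a type and less RNA per cell cannot be told apart.

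Plants anticipate dawn and dusk with a circadian clock, a network of transcription factors that repress one another in sequence through the day. In Arabidopsis thaliana, LHY and its relatives peak near dawn, the pseudo-response regulators (PRRs) follow through the day, and TOC1 and the evening complex of ELF3, ELF4 and LUX act towards night. Light resets the clock every morning, and in leaves the clock sets when the regulators of FT-like genes, the mobile signals for flowering, are made. Dawn in LD comes after a shorter night than dawn in SD.

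The interaction is the log2 change in LD minus the log2 change in SD. A positive interaction means that the gene gained more, or lost less, between ZT0 and ZT2 in LD than in SD. It was tested with edgeR's quasi-likelihood test on estimated read counts of 30111 genes, with Benjamini-Hochberg adjustment over all of them and a threshold of 0.05. Changes within one photoperiod and gaps between photoperiods at one time are given to show the shape of an interaction, with no test, and increase and decrease name the sign of such a fitted change. Levels are normalised counts, that is counts scaled to the mean library size with edgeR's TMM factors, and can be compared across libraries for one gene but not between genes.

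The 12 libraries held between 18009808 and 19560647 estimated counts each. No 2 replicates were alike within sampling noise, and the groups separated fully on the first 2 principal components, which took 42.8% and 29% of the variation. Replicates varied most in LD at ZT0, where the biological coefficient of variation was 0.187, against 0.126 in SD at ZT0, 0.0893 in LD at ZT2 and 0.0965 in SD at ZT2. Replicate 2 of SD at ZT0 and replicate 3 of LD at ZT0 lay farthest from their fellow replicates by counts scaled to library totals. By mean correlation of log2 normalised counts with its group, replicate 2 of LD at ZT0 was slightly lower (0.9712) than replicate 3 (0.9719). The numbers of called genes, in all and by candidate group, were also computed without the 2 libraries that lay farthest by counts.

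**Figure D1:**
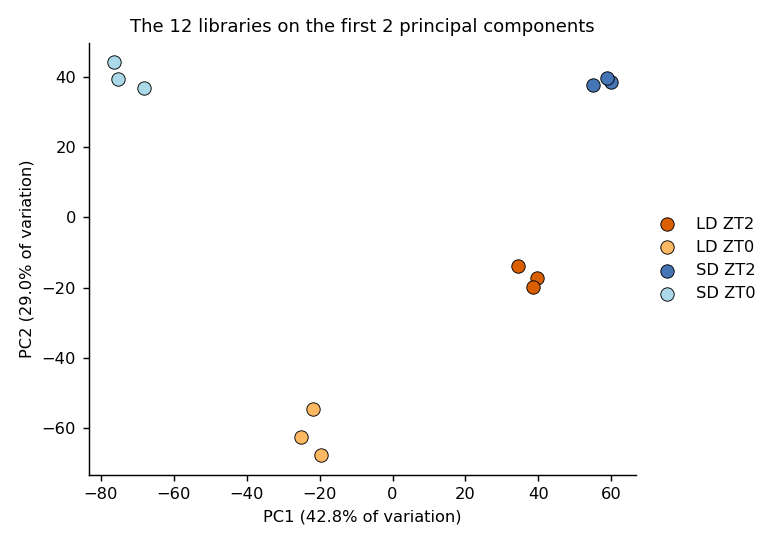
Principal components 1 (horizontal axis) and 2 (vertical axis) of the log2 normalised counts, 1 point per library, 3 libraries per group. On component 1 the LD groups lie closer together (34.4 to 39.7 at ZT2 and -25.1 to -19.6 at ZT0) than the SD groups (55 to 60 at ZT2 and -76.5 to -68.1 at ZT0).

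The dawn change depended on the photoperiod in 5435 of the 30111 genes, 18% of those tested. The interaction was positive in 2767 genes (9.19%) and negative in 2668 (8.86%). Without the 2 libraries that lay farthest by counts, 4390 genes passed the test, 4211 of them among the 5435. The median size of the interaction among the called genes was 0.99 on the log2 scale, close to a 2-fold difference between the 2 changes, while the median interaction over the 19447 genes with a mean normalised count above 10 was 0.004. Calls followed depth. Among genes with a mean of 10 or less 1.69% were called, against 17.4% of those between 10 and 100, 33.1% of those between 100 and 1000 and 32.3% of those above 1000. The median standard error was smaller at higher levels, with 1.72, 0.373, 0.16 and 0.128 log2 units in those 4 classes, so that a missing call at a low level carries little information.

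A smaller set had at least a 2-fold difference between the changes and a mean normalised count above 10. It held 2500 genes, 8.3% of those tested, with 1344 positive (4.46%) and 1156 negative (3.84%). Without the 2 libraries it held 2179.

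Across the 19447 genes with a mean above 10, the step from ZT0 to ZT2 was the smaller one in LD. The standard deviation of the log2 changes was 0.687 in LD and 0.992 in SD, and 1836 genes (9.44%) had a fitted change of more than 2-fold in LD, against 3957 (20.3%) in SD. Of these, 1038 passed 2-fold in both photoperiods, 798 in LD alone and 2919 in SD alone. Where both changes were over 2-fold their direction was mostly shared, in 939 of 1038 genes, and 99 genes went opposite ways. Genes with more than a 2-fold increase in SD had a median log2 change of 0.55 in LD and 1.45 in SD, and those with more than a 2-fold decrease in SD had medians of -0.51 in LD and -1.53 in SD. Picking genes by one photoperiod makes that photoperiod look larger, so the opposite choice is given as well. Genes with more than a 2-fold increase in LD had medians of 1.40 in LD and 0.94 in SD, and those with more than a 2-fold decrease in LD had -1.32 in LD and -1.15 in SD. Over the 19447 genes the changes in LD and SD had a Pearson correlation of 0.485 and a Spearman correlation of 0.518, a description across genes that share the same 12 libraries.

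**Figure D2:**
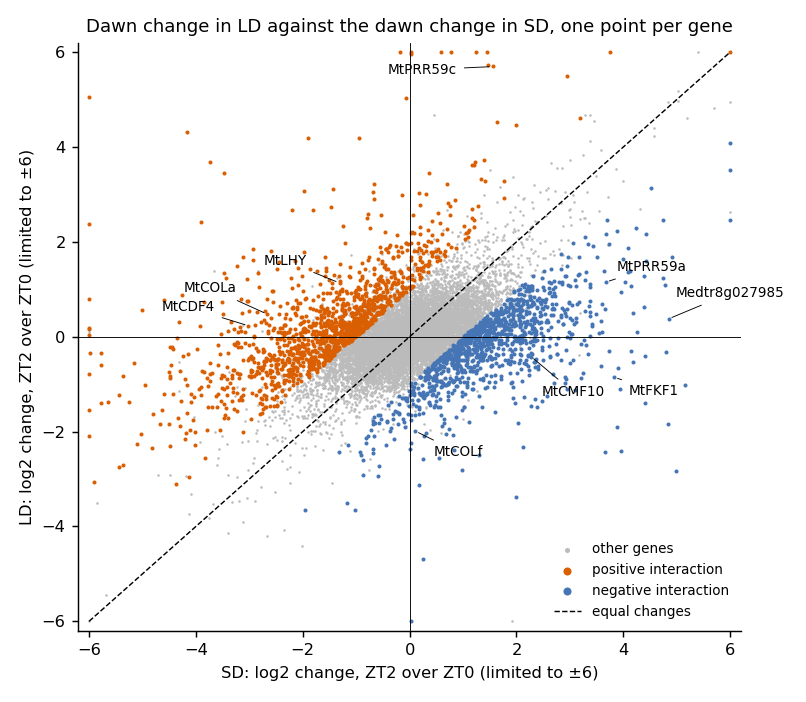
Fitted log2 change from ZT0 to ZT2 in LD (vertical axis) against that in SD (horizontal axis) for the 19447 genes with a mean normalised count above 10, with values beyond 6 drawn at 6. Colours mark the 2500 called genes with at least a 2-fold difference (orange 1344 positive, blue 1156 negative), and both colours spread along the horizontal axis more than along the vertical one.

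The 2500 genes could be sorted by the form of their interaction. In 1969 (78.8%) the change was smaller in LD than in SD, beside 12636 of all 19447 genes above a mean of 10, and this share lay between 73.6% and 80.2% when any 1 library was left out. In 1303 (52.1%) the fitted changes had opposite signs, but only in 89 (3.56%) were both of them over 2-fold. Picking genes by the difference of the changes favours opposite signs, and the share with opposite signs of any size was not computed over all genes. In 1026 (41%) the changes had the same sign and the larger one was in SD, and in 171 (6.84%) the larger one was in LD.

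The same genes can be read as a gap between photoperiods that changed over the 2 h. In 1704 (68.2%) the gap between LD and SD was wider at ZT0 than at ZT2, and in 1803 (72.1%) the fitted gap had the opposite sign at the 2 times. Gaps of any size count here, also very small ones, so many of these genes need not differ between photoperiods at both times. The same shares were not computed over all genes. Of the 1344 genes with a positive interaction, 1296 (96.4%) were lower in LD than in SD at ZT0, and of the 1156 with a negative interaction, 1060 (91.7%) were higher in LD than in SD at ZT0. The ZT0 libraries enter the interaction as well, so these shares describe its form and are no separate evidence.

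The photoperiod candidate genes that the study lists hold the photoreceptors, the clock and the families that regulate FT-like genes in Arabidopsis. Their members and roles were taken as listed. Of these, 135 had counts to test, and 71 were called (52.6%, beside 18% of all genes), with 38 positive and 33 negative. The candidates are expressed above the average: 114 had a mean above 10, and of these 61.4% were called beside 27% of all genes above that level. Without the 2 libraries 62 were called. By role, the count fell from 5 to 4 in the photoreceptors and from 12 to 10 in the CMF and CCT-domain genes. It fell from 8 to 5 in the CBL genes and from 3 to 2 in the NF-Y-like and FE group. In the FT-like, E1 and MADS group it fell from 3 to 1, and in the other groups it was unchanged. The median interaction of the 114 was 0.06 and the median of its size 0.88, beside 0.00 and 0.36 over all genes above that level. At least a 2-fold difference was reached by 44, with 25 positive and 19 negative. Of these 44, 28 (63.6%) had the smaller change in LD, beside 78.8% of the 2500 and 12636 of all 19447 genes above a mean of 10. Changes of opposite sign were seen in 23 (52.3%), near the 52.1% of the 2500.

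**Figure D3:**
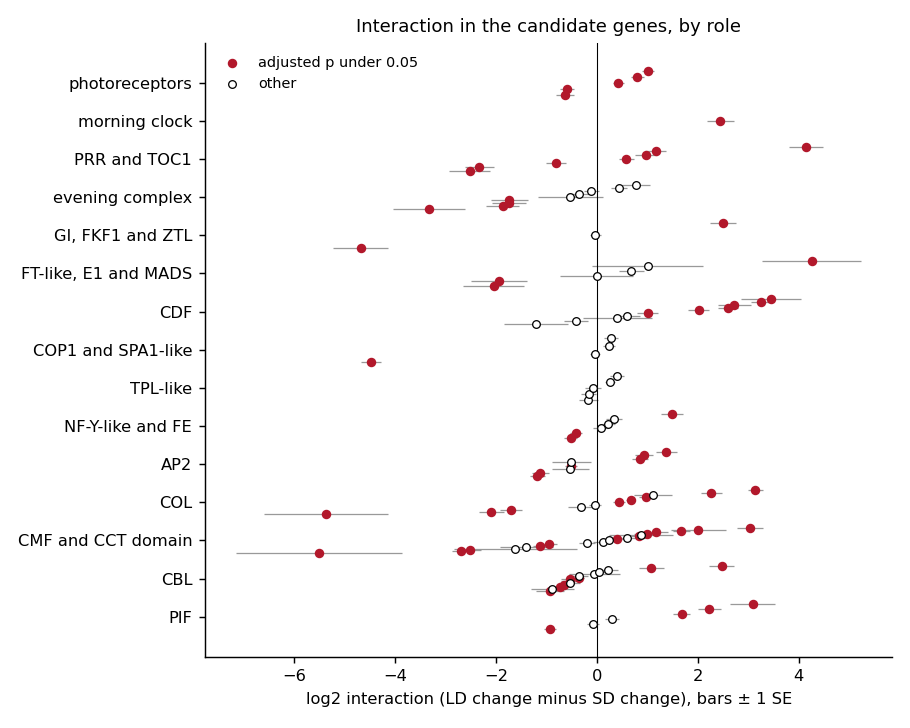
Log2 interaction (horizontal axis, LD change minus SD change, bars ± 1 standard error) of the 114 candidate genes with a mean normalised count above 10, grouped by role down the page. Filled points passed the test. Every CDF gene that passed lies right of 0 and every evening complex gene that passed lies left of it, while the TPL-like genes stay near 0.

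Among the photoreceptors, all 5 tested genes were called (beside 27% of all genes above a mean of 10), 3 positive and 2 negative. The cryptochrome gene MtCRY2A (Medtr1g076190), a blue-light receptor whose deposited description calls it cryptochrome 2B, had the only interaction of 2-fold. It had 1250, 1325 and 1493 normalised counts in LD at ZT2 and 1945, 1953 and 1831 in LD at ZT0. Its SD libraries held 1069, 999 and 1103 at ZT2 and 3274, 2908 and 2870 at ZT0. The 4 groups did not overlap, and the decrease was smaller in LD: the interaction was 1.02 (standard error 0.12, adjusted p = 1.56e-05). MtCRY1 and MtPHYB also had positive interactions, of 0.80 and 0.43.

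The phytochrome A gene MtPHYA (Medtr1g085160), whose product senses far-red light and promotes flowering in LD, went the other way. It had 742, 769 and 874 normalised counts in LD at ZT2 and 1061, 1024 and 1046 in LD at ZT0, against 1158, 1226 and 1510 in SD at ZT2 and 1248, 1074 and 1062 in SD at ZT0. The LD libraries at ZT2 were lower than all others, while the 2 SD groups overlapped. The interaction was -0.60 (standard error 0.144, adjusted p = 0.00769). MtCRY2B had an interaction of -0.63.

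The clock gene MtLHY (Medtr7g118330), a MYB factor of the morning, moved in opposite directions. It had 34251, 34424 and 36436 normalised counts in LD at ZT2 and 16310, 21798 and 9759 in LD at ZT0. The SD levels were 23620, 24226 and 22343 at ZT2 and 60093, 57974 and 56343 at ZT0. No groups overlapped: LD was lower than SD at ZT0 and higher than SD at ZT2. The fitted change was 2.2-fold upward in LD and 2.48-fold downward in SD, an interaction of 2.45 (standard error 0.267, adjusted p = 7.25e-06). LHY and 7 other candidates above a mean of 10 had changes of more than 2-fold in both photoperiods with opposite signs: MtCDF2, MtCDFb, MtCDFc, MtCOLd, MtCBL14, MtCMF9 and MtCOLe, the last with too few counts in SD to fix its direction there.

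All 7 PRR and TOC1 genes were called (beside 27% of all genes above a mean of 10), 4 positive and 3 negative. The 4 with the largest sizes were TOC1a and the PRR59 trio. PRRs repress LHY and its relatives in Arabidopsis, and TOC1 is the member that acts in the evening. MtTOC1a (Medtr4g108880), whose deposited description names PRR7 and not TOC1, had 97.2, 111 and 101 normalised counts in LD at ZT2 and 144, 136 and 121 in LD at ZT0. SD leaves had 21.8, 26.2 and 28 at ZT2 and 6.86, 5.57 and 6.79 at ZT0. Both LD groups were above both SD groups, and the fitted change was 1.3-fold downward in LD and 3.88-fold upward in SD (interaction -2.33, standard error 0.281, adjusted p = 1.94e-05).

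MtPRR59c (Medtr7g118260) had the largest interaction of the clock genes in the positive direction. It had 265, 259 and 363 normalised counts in LD at ZT2 and 9.69, 3.92 and 2.81 in LD at ZT0. In SD the levels were 1152, 1143 and 1251 at ZT2 and 479, 338 and 387 at ZT0. The gene increased in both photoperiods, with fitted changes of 51.8-fold in LD and 2.94-fold in SD, and the LD libraries at ZT0 were far below all others. The interaction was 4.14 (standard error 0.338, adjusted p = 3.74e-07). MtPRR59b (Medtr8g024260) also had the larger increase in LD, with 136, 130 and 144 in LD at ZT2, 13.2, 18.6 and 22.5 in LD at ZT0, 295, 308 and 318 in SD at ZT2 and 95, 81.4 and 95.1 in SD at ZT0. Its interaction was 1.16 (standard error 0.21, adjusted p = 0.000818).

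MtPRR59a (Medtr3g092780) showed the reverse, within the same trio. It had 39.2, 68 and 51.7 normalised counts in LD at ZT2 and 21.1, 29.4 and 20.6 in LD at ZT0, against 225, 199 and 330 in SD at ZT2 and 25.5, 12.3 and 20.4 in SD at ZT0. The photoperiods overlapped at ZT0 and were apart at ZT2, where SD was higher. The interaction was -2.52 (standard error 0.408, adjusted p = 0.000308). Members of one family share sequence, and reads may be split between near-identical copies by the quantification.

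In the evening complex 4 of 9 tested genes were called (44.4%, beside 27% of all genes above a mean of 10). All 4 were negative and over 2-fold, beside 13.4% negative at that level and 1156 of all 19447 genes negative and 2-fold. The 4 genes were MtELF3a, MtELF4, MtLUXa and the ELF3-like gene Medtr8g015480. ELF3 is the scaffold of the complex in Arabidopsis. The ELF3-like gene had 62.6, 53.9 and 34.8 normalised counts in LD at ZT2 and 246, 152 and 282 in LD at ZT0. Levels in SD were 65.2, 61.9 and 68.5 at ZT2 and 73.5, 97 and 69.9 at ZT0. The LD libraries at ZT0 stood above the other 9, and the interaction was -1.87 (standard error 0.334, adjusted p = 0.000752). MtELF3a and MtELF4 had interactions of -1.73 and -1.75. LUX is the DNA-binding member, and MtLUXa (Medtr4g064730) was scarce, with 16.8, 9.71 and 13.7 in LD at ZT2, 19.4, 14.7 and 23.4 in LD at ZT0, 9.32, 10.5 and 11.4 in SD at ZT2 and 0, 3.34 and 0.971 in SD at ZT0. Only the SD libraries at ZT0 stood apart. They held 4 reads together, so that the SD change, 7.67-fold upward, has a 95% counting interval of 2.7 to 30 (exact Clopper-Pearson, counting error only). MtLUXb had an interaction of 0.44 with an adjusted p of 0.0678.

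GIGANTEA (GI) and FKF1 form a blue-light dependent complex in Arabidopsis that removes the CDF repressors in the afternoon of long days. Of the 3 genes of this group 2 were called (66.7%, beside 27% of all genes above a mean of 10). MtGI was called positive and MtFKF1 negative, and MtZTL had an interaction of -0.03 (adjusted p = 0.935). MtGI (Medtr1g098160) had 2273, 2572 and 2575 normalised counts in LD at ZT2 and 8.81, 5.88 and 3.74 in LD at ZT0, against 4105, 4252 and 4953 in SD at ZT2 and 68.6, 55.7 and 67 in SD at ZT0. It increased steeply in both photoperiods, by a fitted 391-fold in LD and 69.2-fold in SD, and LD was lower at both times. The interaction was 2.50 (standard error 0.256, adjusted p = 4.01e-06).

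MtFKF1 (Medtr8g105590) had 10.3, 18.3 and 11.6 normalised counts in LD at ZT2 and 27.3, 13.7 and 30.9 in LD at ZT0. In SD it had 32.1, 35.7 and 38.4 at ZT2 and 2.94, 2.23 and 1.94 at ZT0. The 2 LD groups overlapped, while SD held the highest group and the lowest. The SD libraries at ZT0 held 7 reads together, and the SD change of 14.9-fold upward has a counting interval of 6.98 to 38. The interaction passed the test (adjusted p = 1.38e-05), and since 1 group is close to 0 its fitted size is not a measured one.

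**Figure D4:**
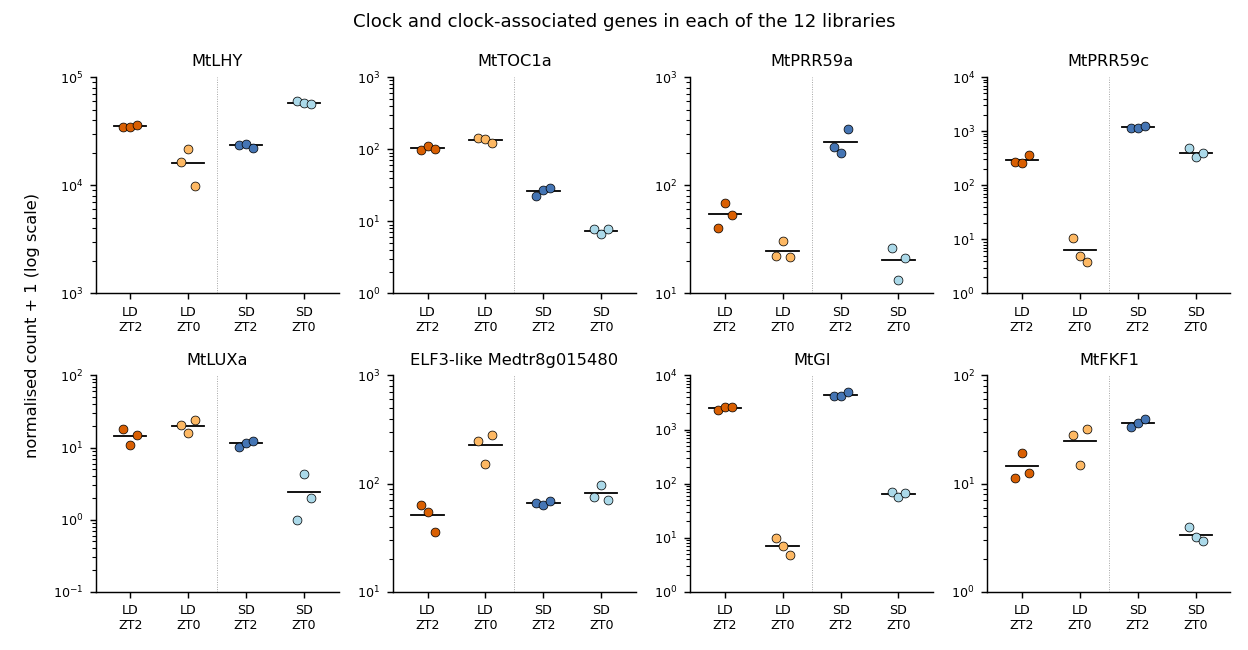
Normalised counts plus 1 (vertical axes, log scale) of 8 clock and clock-associated genes in each of the 12 libraries, with LD ZT2, LD ZT0, SD ZT2 and SD ZT0 along each horizontal axis, 3 points per group and the group mean as a line. MtLHY moves in opposite directions in LD and SD, MtGI increases in both with the steeper step in LD, and MtTOC1a and MtFKF1 step up in SD alone.

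CDF genes encode DOF-type zinc finger factors that repress CONSTANS and FT in Arabidopsis during the morning. Of 14 tested, 7 were called and all 7 were positive, beside 9.19% of all genes. They were MtCDF2, MtCDF3, MtCDF4, MtCDF6, MtCDFb, MtCDFc and MtCDFe, and all but MtCDFe had a mean above 10. Over the 10 CDF genes above that level the median fitted change was 0.32 in LD and -1.18 in SD, and 9 of the 10 had the smaller change in LD, beside 12636 of all 19447 genes above it.

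MtCDF4 (Medtr6g012450) had 525, 529 and 626 normalised counts in LD at ZT2 and 430, 607 and 395 in LD at ZT0. Its SD libraries held 166, 150 and 142 at ZT2 and 1341, 1191 and 1174 at ZT0. The LD groups overlapped and lay between the SD groups. The fitted change was 1.17-fold upward in LD and 8.09-fold downward in SD, an interaction of 3.25 (standard error 0.195, adjusted p = 1.47e-08). MtCDF6 and MtCDF3 had interactions of 2.01 and 1.01, also with a small fitted change in LD (0.42 and 0.06) and a decrease in SD (-1.60 and -0.95), but their LD means did not both lie between the SD means.

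A different form was seen in MtCDFb (Medtr3g435480), with 631, 752 and 832 normalised counts in LD at ZT2, 286, 458 and 152 in LD at ZT0, 922, 869 and 963 in SD at ZT2 and 2694, 2212 and 2459 in SD at ZT0. The 4 groups did not overlap, and the gene increased in LD and decreased in SD. The interaction was 2.73 (standard error 0.335, adjusted p = 2.38e-05). MtCDFc also had opposite signs, with fitted changes of 1.14 in LD and -1.45 in SD. MtCDF2 (Medtr5g041420), with 20.6, 15.1 and 12.7 in LD at ZT2, 9.69, 6.86 and 3.74 in LD at ZT0, 3 reads in each SD library at ZT2 and 12.7, 20.1 and 12.6 in SD at ZT0 likewise had an increase in LD and a decrease in SD, at a low level. Its SD change was 4.78-fold downward with a counting interval of 2.3 to 11.1, and the adjusted p of the interaction was 0.000506.

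CONSTANS-like (COL) genes encode B-box proteins. Of 11 tested, 8 were called (72.7%, beside 27% of all genes above a mean of 10), 5 positive and 3 negative. MtCOLa (Medtr7g018170) had 1846, 1954 and 2256 normalised counts in LD at ZT2 and 1483, 1659 and 1210 in LD at ZT0. The SD levels were 1225, 1190 and 1091 at ZT2 and 7845, 7177 and 7237 at ZT0. SD at ZT0 stood far above the other 9 libraries, and the interaction of 3.14 (standard error 0.157, adjusted p = 2e-09) was an 8.83-fold difference of the changes. MtCOLd (Medtr4g128930) had 1391, 1282 and 1499 in LD at ZT2, 626, 916 and 529 in LD at ZT0, 1742, 1651 and 1853 in SD at ZT2 and 4291, 4184 and 4079 in SD at ZT0. It went up in LD and down in SD, with an interaction of 2.27 (standard error 0.201, adjusted p = 8.61e-07).

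The 3 negative COL genes were high in LD at ZT0. MtCOLf (Medtr5g069480) had 213, 252 and 196 normalised counts in LD at ZT2 and 961, 667 and 994 in LD at ZT0, against 49.7, 52.5 and 44.6 in SD at ZT2 and 40.2, 45.7 and 50.5 in SD at ZT0. The SD groups overlapped, so the step after dawn was in LD alone, and the interaction was -2.09 (standard error 0.251, adjusted p = 1.82e-05). MtCOLe (Medtr3g082630) had 10.3, 5.39 and 9.49 in LD at ZT2 and 95.2, 72.5 and 98.3 in LD at ZT0. SD leaves had 2.07, 0 and 3.11 at ZT2 and 0.98, 0 and 0 at ZT0. With 6 reads in the 6 SD libraries its SD change is unknown, and although its adjusted p was 0.00529 the fitted size is not a measured one. The call was lost without replicate 3 of SD at ZT2 (adjusted p = 0.0727). MtCOLk had an interaction of -1.70.

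The wider family of CCT-motif (CMF) and CCT-domain genes, related to CONSTANS by that motif, had 26 tested members, of which 12 were called (46.2%, beside 18% of all genes), 7 positive and 5 negative. MtCMF10 (Medtr3g091340) had 550, 499 and 530 normalised counts in LD at ZT2 and 696, 752 and 661 in LD at ZT0. In SD the levels were 974, 910 and 841 at ZT2 and 239, 184 and 141 at ZT0. No groups overlapped, and its interaction of -2.69 (standard error 0.186, adjusted p = 6.95e-08) paired a small decrease in LD with a 4.83-fold increase in SD. MtCMF9 had an interaction of -2.51.

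Medtr2g089310, described as a B-box zinc finger gene, went the other way, with 801, 778 and 867 normalised counts in LD at ZT2, 155, 242 and 102 in LD at ZT0, 699, 750 and 754 in SD at ZT2 and 1303, 1200 and 1175 in SD at ZT0. No groups overlapped, and the increase was in LD. The interaction was 3.03 (standard error 0.254, adjusted p = 4.86e-07). Medtr2g011450 (28, 35.6 and 40.1 in LD at ZT2, 1.76, 10.8 and 2.81 in LD at ZT0, 29, 28.3 and 24.9 in SD at ZT2 and 17.6, 15.6 and 15.5 in SD at ZT0) had an interaction of 2.01 (adjusted p = 0.0154), with a call that was lost without the 2 libraries (adjusted p = 0.0751). Medtr2g073370 had no read in SD at ZT0 and 21.8, 29.4 and 42.6 normalised counts in SD at ZT2, at least a 10.2-fold increase with 3 reads per library as the floor. Its LD libraries held 14.9, 27 and 16.9 at ZT2 and 3.52, 6.86 and 0 at ZT0, a fitted 5.53-fold increase. With the same floor the changes of Medtr2g073370 differed at least 1.8-fold, so it passed the 2-fold rule by its fitted value only. The adjusted p was 0.032, and the call was lost in 10 of 25 alternative settings, up to 0.0974.

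PIFs are basic helix-loop-helix (bHLH) factors that phytochromes destroy in the light. Of 9 tested, 4 were called (44.4%, beside 18% of all genes), 3 positive and 1 negative. MtPIF3a (Medtr1g084980) had 1031, 875 and 1183 normalised counts in LD at ZT2 and 496, 691 and 390 in LD at ZT0, against 1419, 1256 and 1453 in SD at ZT2 and 3612, 2937 and 3305 in SD at ZT0. No groups overlapped, and the interaction was 2.23 (standard error 0.226, adjusted p = 3.69e-06), with an increase in LD and a decrease in SD. MtPIF6 (Medtr7g110810) had 27.1, 31.3 and 42.2 in LD at ZT2, 5.29, 3.92 and 7.49 in LD at ZT0, 26.9, 22 and 15.6 in SD at ZT2 and 38.2, 31.2 and 24.3 in SD at ZT0. Only its LD libraries at ZT0 stood apart, below all others (interaction 3.09, standard error 0.448, adjusted p = 0.000115). MtPIF45 had an interaction of 1.68 and MtPIF1a, the negative one, of -0.92.

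The CBL genes of this list are bHLH genes related to the cryptochrome-interacting CIB proteins of Arabidopsis. Of 14 tested, 8 were called (57.1%, beside 27% of all genes above a mean of 10), 2 positive and 6 negative. MtCBL14 (Medtr6g084120) had 114, 98.2 and 120 normalised counts in LD at ZT2 and 59, 41.1 and 46.8 in LD at ZT0. Levels in SD were 67.3, 45.1 and 48.8 at ZT2 and 122, 143 and 133 at ZT0. LD at ZT0 overlapped SD at ZT2 and the other 2 groups lay above them. The interaction was 2.47 (standard error 0.245, adjusted p = 2.77e-06). MtCBL1 had 336, 411 and 358 in LD at ZT2, 547, 361 and 663 in LD at ZT0, 376, 272 and 250 in SD at ZT2 and 822, 961 and 922 in SD at ZT0. Only SD at ZT0 stood apart, with an interaction of 1.08 (adjusted p = 0.00628). The 6 negative members had no interaction of 2-fold, between -0.93 for MtCBL5 and -0.36 for MtCBL8. Without the 2 libraries 5 of the 14 were called.

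**Figure D5:**
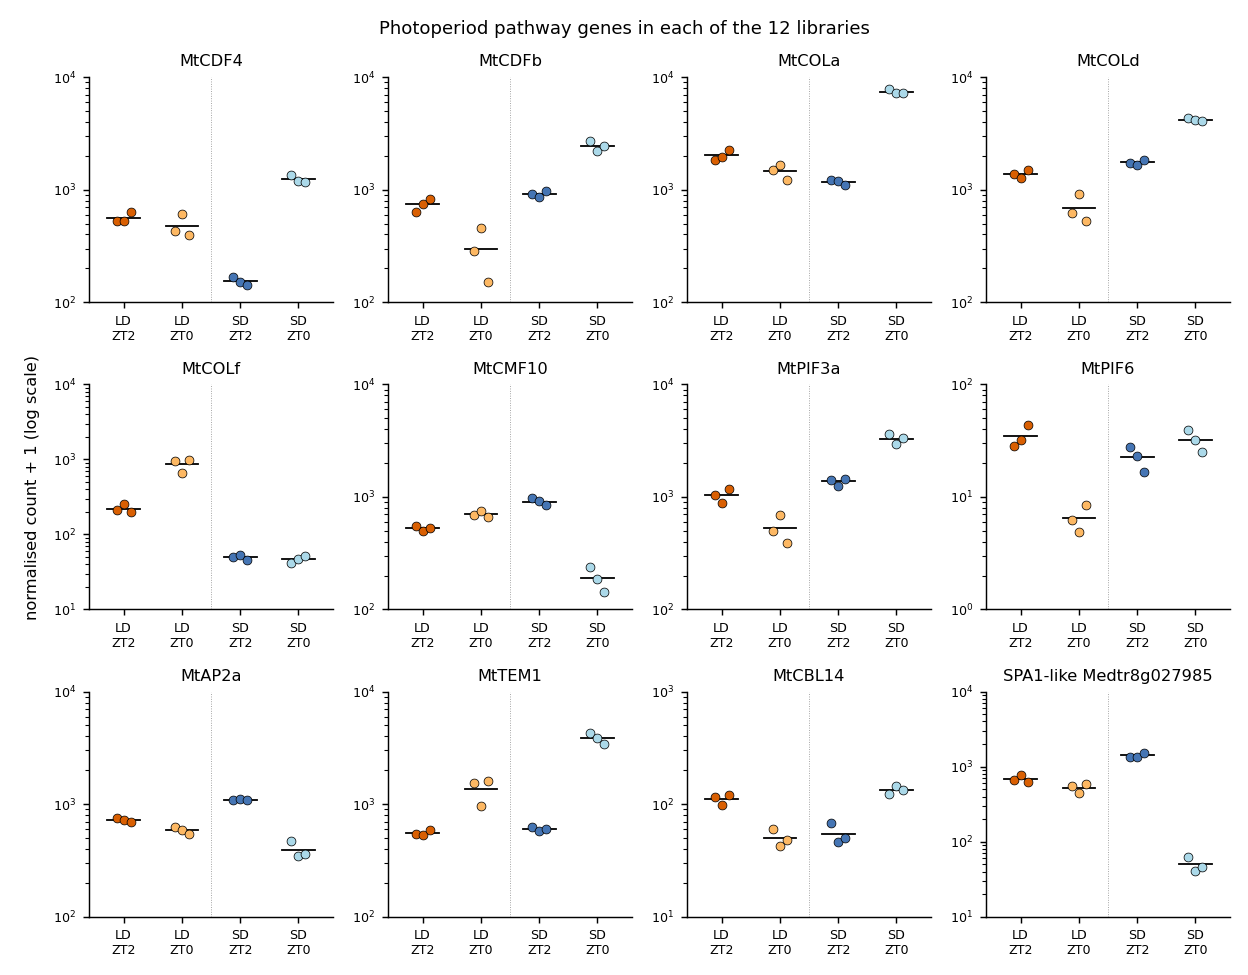
Normalised counts plus 1 (vertical axes, log scale) of 12 photoperiod pathway genes in each of the 12 libraries, with LD ZT2, LD ZT0, SD ZT2 and SD ZT0 along each horizontal axis, 3 points per group and the group mean as a line. MtCDF4 and MtCOLa are lower at ZT2 than at ZT0 in SD and differ little between times in LD, MtCDFb, MtCOLd, MtPIF3a and MtCBL14 move in opposite directions, and the SPA1-like gene Medtr8g027985 has a large step up in SD and a small one in LD.

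COP1 and the SPA proteins form a ubiquitin ligase that degrades CONSTANS in the dark in Arabidopsis. Of 4 genes in this group, all above a mean of 10, 1 was called (25%, near the 27% of all genes above that level), the SPA1-like gene Medtr8g027985, whose deposited description reads as a putative COP1 ligase. It had 664, 763 and 622 normalised counts in LD at ZT2 and 551, 438 and 588 in LD at ZT0. In SD it had 1349, 1359 and 1537 at ZT2 and 61.7, 40.1 and 44.6 at ZT0. No groups overlapped. The fitted change was 1.3-fold in LD and 28.8-fold in SD, both upward, and the interaction of -4.47 (standard error 0.198, adjusted p = 9.23e-10) was the most extreme among the candidates with a library above 3 reads in every group. MtCOP1 had an interaction of 0.24 (adjusted p = 0.205). None of the 7 tested TPL-like corepressor genes was called in the main edgeR fit, where 2 had an unadjusted p under 0.05 and the lowest adjusted p was 0.0602. DESeq2 called 1 of them and limma-voom 0. Up to 1 was called by edgeR with 1 library left out, and up to 2 over all alternatives.

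The AP2 family holds repressors of FT and of flowering in Arabidopsis. Of its 8 genes 6 were called (75%, beside 27% of all genes above a mean of 10), 3 positive and 3 negative. MtTEM1 (Medtr1g093600) had 543, 530 and 588 normalised counts in LD at ZT2 and 1538, 958 and 1615 in LD at ZT0, against 621, 579 and 603 in SD at ZT2 and 4321, 3849 and 3440 in SD at ZT0. It decreased in both photoperiods, by 2.48-fold in LD and 6.43-fold in SD, to levels that overlapped at ZT2 (interaction 1.38, standard error 0.209, adjusted p = 0.000171). MtAP2a (Medtr5g016810) had 748, 718 and 698 in LD at ZT2, 620, 588 and 545 in LD at ZT0, 1084, 1106 and 1097 in SD at ZT2 and 466, 349 and 360 in SD at ZT0. Its small increase in LD and larger one in SD gave an interaction of -1.18 (standard error 0.139, adjusted p = 1.56e-05), and MtAP2b gave -1.12, with 383, 416 and 338 in LD at ZT2, 349, 275 and 374 in LD at ZT0, 455, 419 and 392 in SD at ZT2 and 158, 195 and 159 in SD at ZT0.

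NF-Y factors bind DNA together with CONSTANS. Of 6 genes in the NF-Y-like and FE group 3 were called (50%, beside 27% of all genes above a mean of 10). The interaction was positive in 1 and negative in 2, and the NF-YB-like gene Medtr5g095740 had the only one of 2-fold. It had 189, 207 and 225 normalised counts in LD at ZT2 and 388, 357 and 489 in LD at ZT0. Its SD libraries held 160, 123 and 97.6 at ZT2 and 769, 641 and 711 at ZT0. No groups overlapped, and the decrease was smaller in LD (interaction 1.48, standard error 0.214, adjusted p = 0.000111).

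The FT-like, E1 and MADS group was mostly scarce at these times, with 6 of 11 tested genes above a mean of 10 and 3 called (27.3%, beside 18% of all genes). MtE1 (Medtr2g058520), a B3-domain gene whose soybean homologue represses FT genes, had 25.2, 48.5 and 45.3 normalised counts in LD at ZT2 and 0, 0.979 and 0.936 in LD at ZT0. The SD levels were 6.21, 11.6 and 8.3 at ZT2 and 2.94, 1.11 and 4.85 at ZT0. No groups overlapped, with the highest and the lowest both in LD. The LD libraries at ZT0 held 2 reads, so the LD change of 62.9-fold has a counting interval of 17 to 526. The interaction passed the test (adjusted p = 0.00553).

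MtFTa1 (Medtr7g084970), an FT-like gene that promotes flowering in Medicago, had 22.4, 37.8 and 39 normalised counts in LD at ZT2 and 61.7, 36.2 and 56.2 in LD at ZT0, against 0, 0 and 1.04 in SD at ZT2 and 1.96, 1.11 and 0.971 in SD at ZT0. LD was above SD at both times and the LD groups overlapped. With 5 reads in the 6 SD libraries its dawn change in SD was not detectable at this depth, and the interaction did not pass the test (adjusted p = 0.644). MtFTb1 (Medtr7g006630), another FT-like gene, had 5.61, 5.39 and 7.38 normalised counts in LD at ZT2 and no read in the other 9 libraries, at least a 2.19-fold increase in LD with 3 reads per library as the floor. MtFTb2 had 3 reads in 1 LD library at ZT2 and none elsewhere. The interaction of MtFTb1 and that of MtFTb2 did not pass the test, and neither gene had a read in SD.

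Smaller interactions in this group depended on single libraries. MtFTa2 (Medtr7g085020), another FT-like gene, had 3.74, 14 and 5.27 normalised counts in LD at ZT2, 30, 12.7 and 20.6 in LD at ZT0, 15.5, 12.6 and 18.7 in SD at ZT2 and 12.7, 8.92 and 9.71 in SD at ZT0. Its groups overlapped and its interaction was -2.05 (standard error 0.612, adjusted p = 0.0277), with a call that was lost without any 1 of 6 libraries and reached 0.0878 without the 2 libraries at ZT0. MtFULb, a MADS-box gene of the FRUITFULL type, had 34.6, 16.2 and 15.8 in LD at ZT2, 18.5, 10.8 and 14 in LD at ZT0, 24.9, 28.3 and 27 in SD at ZT2 and 2.94, 3.34 and 6.79 in SD at ZT0. Its SD libraries at ZT0 were below all others, and its interaction was -1.94 (adjusted p = 0.0233), lost without any 1 of 5 libraries. MtSOC1a (Medtr7g075870), a MADS-box integrator of flowering signals, had 136, 140 and 161 in LD at ZT2, 96.9, 120 and 81.4 in LD at ZT0, 105, 116 and 78.9 in SD at ZT2 and 106, 97 and 126 in SD at ZT0. LD at ZT2 was above the other 9 libraries, yet the interaction of 0.69 did not pass (standard error 0.241, adjusted p = 0.0621) and did so in 6 of 25 alternatives.

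Outside the candidates, a description was at hand for 4051 of the 30111 genes tested, and for 1277 of the 5208 called genes above a mean of 10 with reads in every group. These descriptions come from shortened tables that are ordered by results of these data, so named genes are examples and the groups cannot be counted. The 6 most positive described genes were all candidates given above, whose descriptions do not depend on that order. The 6 most negative were Medtr1g082580, Medtr4g084270, Medtr2g041550, Medtr1g112240, Medtr3g462340 and Medtr7g006060, and all 6 were lowest in SD at ZT0. The order of those tables favours that form, so it is no separate result.

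Among those 6 were 2 genes of starch and sugar phosphate metabolism. Medtr3g462340, an alpha-glucan phosphorylase gene whose product releases glucose 1-phosphate from glucans, had 944, 1218 and 947 normalised counts in LD at ZT2 and 1368, 1063 and 1670 in LD at ZT0. SD leaves had 2719, 2840 and 3659 at ZT2 and 131, 149 and 151 at ZT0. The LD groups overlapped and lay between the SD groups (interaction -4.82, standard error 0.23, adjusted p = 1.63e-09). Medtr4g084270, a phosphoglucomutase or phosphomannomutase gene, had 97.2, 123 and 96 in LD at ZT2, 204, 160 and 271 in LD at ZT0, 691, 646 and 873 in SD at ZT2 and 11.8, 33.4 and 17.5 in SD at ZT0. It decreased in LD and increased 35.8-fold in SD (interaction -6.17, standard error 0.343, adjusted p = 6e-09).

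Another gene of related function was named because a group was close to 0. Medtr2g022700, a glucose 6-phosphate/phosphate translocator-like gene, had 142, 70.1 and 58 normalised counts in LD at ZT2 and 6.17, 5.88 and 3.74 in LD at ZT0, against 596, 480 and 659 in SD at ZT2 and no read in SD at ZT0. It increased in both photoperiods, by a fitted 16.9-fold in LD and at least 190-fold in SD, so the changes differed at least 11-fold (3 reads per library as the floor in SD at ZT0, adjusted p = 0.0012). These 3 genes were put together after their values were seen.

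The other 4 described genes had unlike functions. Medtr1g082580, a serine/threonine kinase gene, had 46.7, 34.5 and 14.8 normalised counts in LD at ZT2, 144, 73.5 and 297 in LD at ZT0, 83.9, 135 and 72.7 in SD at ZT2 and 8.82, 7.8 and 1.94 in SD at ZT0. Each photoperiod's groups were apart, with a decrease in LD and an increase in SD (interaction -6.37, standard error 0.776, adjusted p = 2.17e-05). Medtr2g041550, annotated as an auxin-binding protein of the ABP19a type, had an LD replicate at ZT0 of 2979 beside 1217 and 611, and 652, 809 and 362 in LD at ZT2. In SD the levels were 268, 384 and 222 at ZT2 and 8.82, 12.3 and 19.4 at ZT0 (interaction -5.81, adjusted p = 5.55e-05). The pentatricopeptide repeat gene Medtr1g112240 had 46.7, 50.7 and 71.7 in LD at ZT2, 125, 87.2 and 149 in LD at ZT0, 192, 149 and 152 in SD at ZT2 and 11.8, 14.5 and 5.82 in SD at ZT0, and its interaction was -5.04. The methyltransferase gene Medtr7g006060 had 108, 123 and 113 in LD at ZT2, 160, 133 and 206 in LD at ZT0, 389, 365 and 398 in SD at ZT2 and 12.7, 23.4 and 27.2 in SD at ZT0, and its interaction was -4.72. In both genes the LD groups lay between the SD groups.

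In 47 called genes with a mean above 10 at least 1 group had no library above 3 reads, and the 2 most positive and 2 most negative of them are given here. Medtr3g008920, a water or solute channel gene of the MIP family, had 0.934, 1.08 and 0 normalised counts in LD at ZT2 and 2.64, 6.86 and 7.49 in LD at ZT0. Levels in SD were 29, 34.6 and 44.6 at ZT2 and 0.98, 1.11 and 0.971 at ZT0. It decreased 8.22-fold in LD (counting interval 1.97 to 73.1) and increased 35.5-fold in SD (11.8 to 175), with an adjusted p of 1.09e-05. Medtr7g022490, with no description here, had 14, 18.3 and 13.7 in LD at ZT2, 8.81, 30.4 and 1.87 in LD at ZT0, no read in SD at ZT2 and 308, 1037 and 847 in SD at ZT0. Its SD level was at least 230-fold lower at ZT2 while its LD groups overlapped (adjusted p = 0.000185). Medtr0003s0090 rested on 3 libraries, with 11.2 in LD at ZT2 replicate 1, 34.3 and 83.5 in SD at ZT0 replicates 1 and 3, and no read in the other 9. Its adjusted p was 0.0401 and became 1 without the LD library; the call was lost in 13 of 25 alternatives.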

How the data were processed

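RNA of first trifoliate leaves was sequenced by the authors (ScriptSeq Complete kit in the 12 libraries used here), reads were trimmed and transcripts of the Mt4.0v2 annotation were quantified with Salmon 0.8.2. The deposited unit is the estimated count per gene, with 11.4% of values not whole, and these expected counts were rounded. TPM values deposited by the authors were used for length offsets only.

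Genes with a total count above 1 over the 12 libraries were tested with edgeR 4.0.16 (glmQLFit and glmQLFTest, R 4.3.3, limma 3.58.1) in a model of photoperiod, time and their product, with TMM factors, no replicate block and Benjamini-Hochberg adjustment over 30111 genes. Salmon shares reads among similar transcripts, so near-identical copies are uncertain. The standard error is the log2 interaction divided by the square root of F. A group counted as close to 0 when no library exceeded 3 reads. Counting intervals are 95% exact intervals. Libraries held 18009808 to 19560647 counts. Replicates are pools of leaves from different plants of 1 experiment.

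Named genes were, in each role group, up to 2 most positive and 2 most negative called genes with a mean above 10 and at least a 2-fold interaction, with MtPHYA, MtFTa1, MtFTb1, MtFTb2 and MtSOC1a always; the 6 most positive and negative with a description; and the 2 most positive and negative with a group close to 0. The members and lists were chosen with earlier results of these data known. On simulated data with 29344 genes the interaction test recovered 55 of 100 genes with a 2-fold and 81 of 100 with a 4-fold interaction, with 7 false calls. No other simulated gene carried an interaction, while 18% of genes were called in the data. The adjustment depends on that share, so this recovery does not carry over directly. Alternatives were DESeq2 1.42.0, limma-voom, other scalings and filters, length offsets, thinning, all 18 libraries, a replicate block and leaving out libraries. No gene identifier matched the RefSeq table used here (0 of 50444), so tissue markers, word lists and promoter sequences were not analysed here.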

Additional observations from a re-analysis of the deposited data

Results flagged for a closer look

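Each result below was singled out because the same contrast, ZT2 over ZT0, differed between LD and SD by the test of that difference. This holds for the 5435 called genes, the 2500 with at least a 2-fold difference and the 71 candidates. Groups of 3 are too small for a test of single outlying libraries, and none was made.

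The lists that follow sort by the sign of the fitted log2 interaction, not by which photoperiod had the larger change. It was positive in these named genes: MtCRY2A 1.02, MtLHY 2.45, MtPRR59b 1.16, MtPRR59c 4.14, MtGI 2.50, MtCDF4 3.25, MtCDFb 2.73, Medtr5g095740 1.48, MtTEM1 1.38, MtCOLa 3.14, MtCOLd 2.27, Medtr2g011450 2.01, Medtr2g089310 3.03, MtCBL1 1.08, MtCBL14 2.47, MtPIF3a 2.23 and MtPIF6 3.09.

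The interaction was negative in MtPHYA (-0.60), MtTOC1a (-2.33), MtPRR59a (-2.52), Medtr8g015480 (-1.87), MtFTa2 (-2.05), MtFULb (-1.94), Medtr8g027985 (-4.47), MtAP2a (-1.18), MtAP2b (-1.12), MtCOLf (-2.09), MtCMF10 (-2.69), Medtr1g082580 (-6.37), Medtr1g112240 (-5.04), Medtr2g041550 (-5.81), Medtr3g462340 (-4.82), Medtr4g084270 (-6.17) and Medtr7g006060 (-4.72).

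In 10 genes a group had 3 reads or fewer in every library. The fitted log2 value then rests on very few reads, or on a small constant added to the counts where the group had no read. It is not a measured size: MtLUXa -3.33, MtFKF1 -4.68, MtE1 4.25, MtCDF2 3.46, MtCOLe -5.37, Medtr2g073370 -5.50, Medtr0003s0090 13.37, Medtr2g022700 -8.10, Medtr3g008920 -7.82 and Medtr7g022490 12.70.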

How the results depend on the processing

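Over 25 alternatives none of the 44 called named genes changed direction. MtFTb1 and MtFTb2, which were not called in the main fit, were left out of this comparison. The count of called genes lay between 4390 and 5960, and 4497 to 5769 when 1 library was left out. The 2-fold set held 2269 to 2674 genes with 1 library left out, and 1352 when the log2 interaction had to exceed 1.5. The candidates called numbered 63 to 77 with 1 library left out. The share of positive calls, 50.9%, was 45.7% with all 18 libraries and 55.3% with upper-quartile scaling. Of 44 called named genes 38 stayed called in every alternative and 6 did not: MtFTa2, MtFULb, MtCOLe, Medtr2g011450, Medtr2g073370 and Medtr0003s0090. Leaving out both libraries at ZT0 was chosen after seeing the data.

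Same replicate numbers denote different plants. Deviations of same-numbered libraries correlated between -0.27 and 0.179, over 0.1 in 5 of 18 pairs, and 3 of 12 libraries correlated best with their own number. A fit with a replicate block called 4965 genes, 4902 of them among the 5435, with 2489 in the 2-fold set and 68 candidates.

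Low counts limit genes with a mean under 10, and each group has 3 pools. With 2 times, a shift in timing and a change in level cannot be told apart.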

Other observations

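Libraries of some groups were spread unevenly along the dawn change. Of the LD libraries at ZT0, replicate 2 was nearest to the LD level at ZT2 in 46.4% of the 2500 genes. Replicate 3 was the farthest in 47.4%. Shares were more even in LD at ZT2, where replicates 1, 2 and 3 were nearest to the LD level at ZT0 in 29.6%, 38.2% and 32.2%. In SD at ZT0, replicate 2 was the farthest from the SD level at ZT2 in 43.4%, and in SD at ZT2 replicate 1 was the nearest to the SD level at ZT0 in 44.5%. Without LD replicate 2 at ZT0, 5769 genes were called and the share with the smaller change in LD was 73.6%.

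Below a mean of 10 normalised counts, MtCDFe had a log2 interaction of 3.68 (standard error 0.643, adjusted p = 0.00062 by edgeR's quasi-likelihood test), with group means of 11.99 in LD at ZT2, 2.205 in LD at ZT0, 5.898 in SD at ZT2 and 14.59 in SD at ZT0. As in MtCDFb and MtCDFc, the fitted change was an increase in LD and a decrease in SD.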
